A study of Mus musculus with 6 samples.

Results

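Genes of alveolar fibroblasts and lipofibroblasts were compared between lungs of Col6a1-/- and wildtype mice. The 9 genes (Tcf21, Pdgfra, Wnt2, Limch1, Inmt, Fgfr4, Slc7a10, Plin2 and G0s2) were chosen by name from the 49568 rows of the table of normalized counts, and all 9 were among the 16879 genes tested. The RNA came from the perfused right lung lobes of mice killed at 6 weeks of age. Both groups are labelled C57BL/6, one with the genotype Col6a1-/- and one wildtype, and the labels name no treatment that set them apart. Each genotype had 3 libraries, each made from the pooled RNA of 2 animals, so that 6 animals stood behind each group and the spread between libraries is that between pools. The labels name neither the kind of Col6a1 allele nor the sex of the animals.

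Alveolar fibroblasts are the resident mesenchymal cells of the gas exchange wall, and lipofibroblasts are those that hold lipid droplets beside type 2 epithelial cells. TCF21 is a basic helix-loop-helix transcription factor of this lineage, and PDGFRA is the receptor through which platelet-derived growth factor from the epithelium reaches it. WNT2 is a ligand that mesenchymal cells send to the epithelium. PLIN2 coats lipid droplets, and G0S2 inhibits the lipase that empties them; both are also made by fat tissue, macrophages and other cells. In whole lung RNA a smaller number of fibroblasts and less RNA of a gene per fibroblast cannot be told apart.

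The upstream sequence is shown for Plin2, Inmt and G0s2, the members whose promoters held CAGCTG, the E-box core that TCF21 is known to bind. The sequences are those of RefSeq on GRCm38.p6, 5′ to 3′ on the strand of the gene, and each ends before both the RefSeq and the GENCODE start, at chr4:86670061-86670309, chr6:55175044-55175240 and chr1:193273218-193273438, all on the minus strand. Capitals mark CAGCTG, the TATA box TATAAA and the nuclear receptor half-site AGGTCA, on either strand (TGACCT is the half-site on the other strand).
Plin2: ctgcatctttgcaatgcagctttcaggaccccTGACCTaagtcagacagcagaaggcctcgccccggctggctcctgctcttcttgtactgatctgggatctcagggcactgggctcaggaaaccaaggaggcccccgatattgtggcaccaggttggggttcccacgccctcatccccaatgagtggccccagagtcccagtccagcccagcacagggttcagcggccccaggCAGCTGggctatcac
Inmt: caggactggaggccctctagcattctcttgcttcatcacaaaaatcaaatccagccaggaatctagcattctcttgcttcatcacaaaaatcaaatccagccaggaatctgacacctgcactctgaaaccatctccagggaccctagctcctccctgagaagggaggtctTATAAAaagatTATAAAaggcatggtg
G0s2: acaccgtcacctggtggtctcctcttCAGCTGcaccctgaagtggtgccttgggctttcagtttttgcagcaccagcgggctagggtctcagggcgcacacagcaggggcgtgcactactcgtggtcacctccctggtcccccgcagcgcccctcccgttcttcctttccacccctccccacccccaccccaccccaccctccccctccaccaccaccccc
All 9 genes had a promoter in the RefSeq table, 11 promoters in all since Limch1 had several starts. Both strands of the 250 bases before each start were searched, and no matches in these genes overlapped one another. CAGCTG was in 3 of the 11, 1 each of Plin2, Inmt and G0s2, and in 13.0% of all 32851 promoters. The match in Inmt began 14 bases before the RefSeq start, past the end of the part shown. TATAAA was in 2 of the 11 (Inmt, where it occurred at 80 and 69 bases before the start, and Limch1) and in 12.4% of all, AGGTCA in 3 (Plin2 and Limch1) and in 14.0% of all. CACGTG was in none of the 11 windows and in 6.02% of all.

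The libraries held 28055414 to 37904878 reads in genes. Col6a1 stood at 49.5% of the wildtype mean (log2 difference -1.01, limma adjusted p 0.00643), with no overlap between the genotypes. The lung markers Sftpc, Sftpb, Scgb1a1 and Ager had at least 58324 normalized counts in every library, the lowest being Ager in Col6a1-/- replicate 1. Levels of the 4 Y-linked genes, relative to the library where they were highest, were 0.347%, 3.35% and 51.5% for wildtype pools 1 to 3 and 72.5%, 100.0% and 51.1% for the Col6a1-/- ones. The pools thus differed in the share of male animals, and only wildtype replicate 3 and Col6a1-/- replicates 1 and 3 were mixed by this measure. The male share ran partly with genotype, so effects of sex and of genotype cannot be fully told apart here. Fits on the mixed-sex pools alone set wildtype replicate 3 by itself against Col6a1-/- replicates 1 and 3, with no spread within wildtype. Mitochondrial transcripts took 1.09% to 1.99% of wildtype and 1.88% to 2.29% of Col6a1-/- counts.

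None of the 9 genes passed the test between the genotypes. The test was limma on log2(normalized count + 1), with Benjamini-Hochberg adjustment over all 16879 genes and a threshold of 0.05; it called 0.0652% of all genes, 0.0178% higher and 0.0474% lower in Col6a1-/- lungs. Its 11 calls were 3 higher and 8 lower, and with each library centred on its median 26 were called, 3 higher and 23 lower. At an unadjusted p under 0.05 there were 4 of the 9 (Plin2, Pdgfra, Inmt and Wnt2), against 20.3% of all tested genes. For 5 of the 9 every library of one genotype lay beyond those of the other, with Inmt and Wnt2 higher and Pdgfra, Plin2 and Limch1 lower in every Col6a1-/- library. Over all tested genes, 24.9% did not overlap, 10.7% higher and 14.2% lower. Estimates were above 0 for 4 of the 9 and for 51.7% of all tested genes, and the medians of the log2 difference were -0.011 and 0.0098. Leaving out Col6a1-/- replicate 2 took the median of the 9 genes to -0.13, and leaving out Col6a1-/- replicate 3 took it to 0.055; it also lay above 0 when Col6a1-/- replicate 1 (0.033) or wildtype replicate 1 (0.049) was left out. edgeR and DESeq2 on recovered reads also called none of the 9, and so did the authors' deposited table, in which 5.05% of genes with an adjusted p were called.

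**Figure D1:**
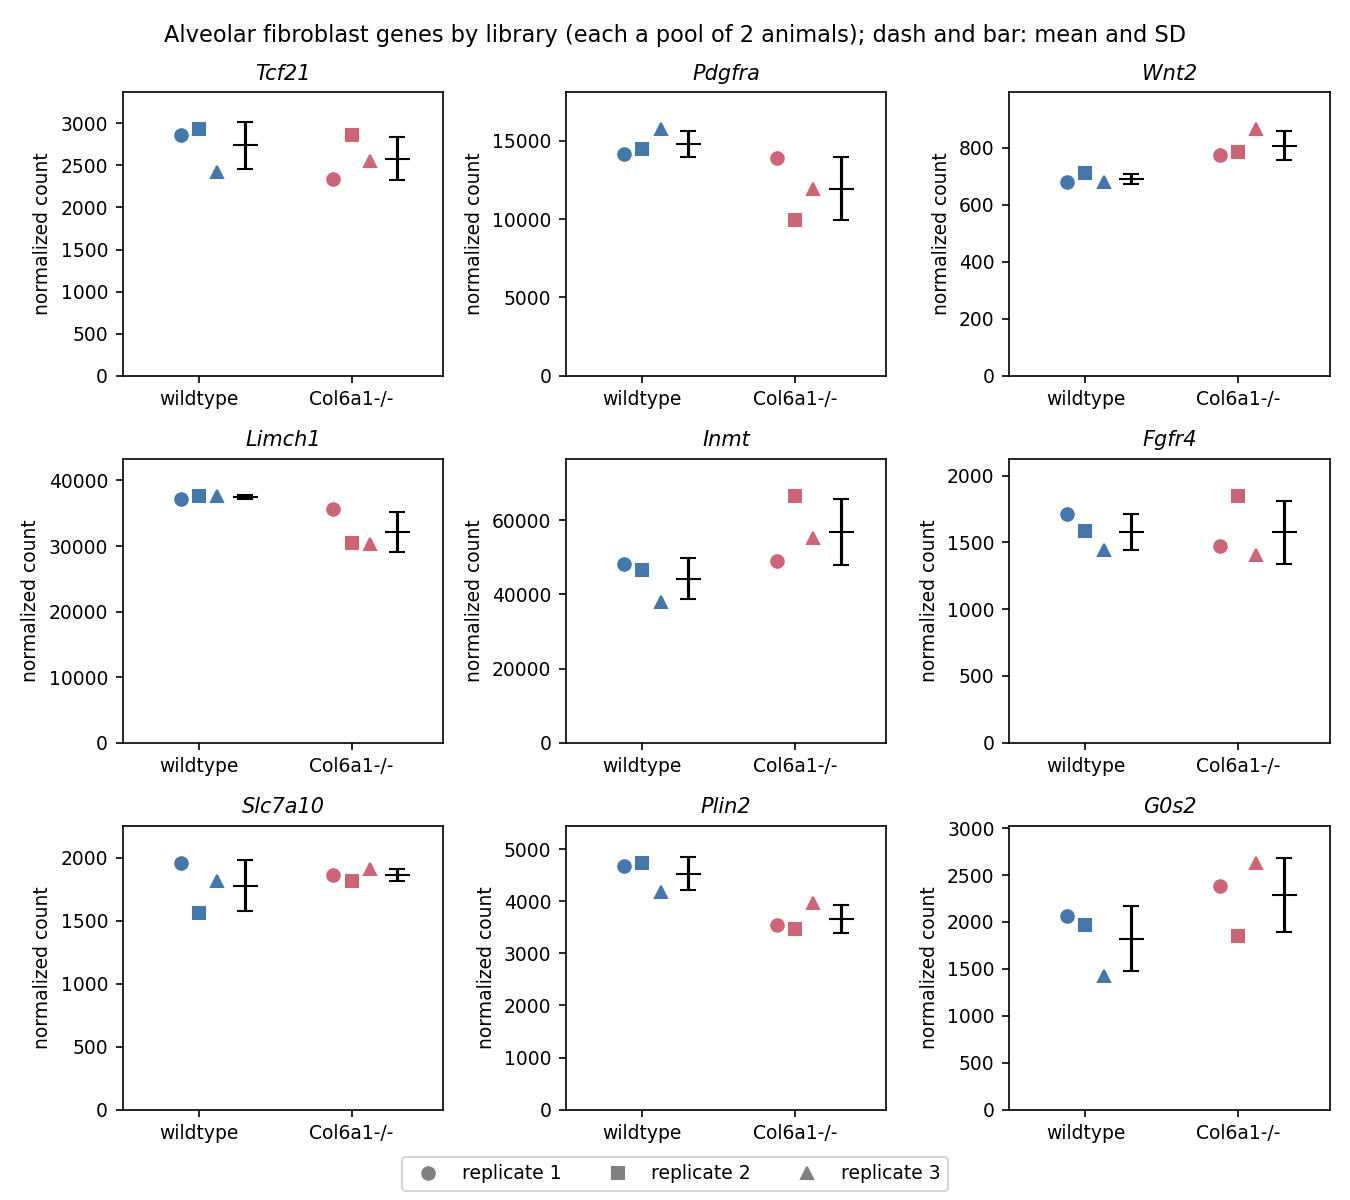
Normalized counts of the 9 genes in each library (vertical axes, each from 0), wildtype in blue and Col6a1-/- in red, with the mean and SD over 3 pools beside the points. Pdgfra, Limch1 and Plin2 lie lower and Wnt2 and Inmt higher in every Col6a1-/- pool, while Tcf21, Fgfr4, Slc7a10 and G0s2 overlap between genotypes.

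Tcf21 (ENSMUSG00000045680.8, chromosome 10, 22817281 to 22820174, minus strand, GRCm38), the lineage transcription factor, overlapped between the genotypes. Tcf21 reached normalized counts of 2862, 2933 and 2423 across wildtype pools 1 to 3 and of 2340.1, 2857 and 2547 across Col6a1-/- pools 1 to 3. The lowest and the highest library were a Col6a1-/- and a wildtype pool, and the remaining libraries were interleaved. The log2 difference, Col6a1-/- minus wildtype, was -0.086 (SE 0.107) at a limma adjusted p of 0.676. Of the listed partners with which TCF21 can dimerise, Tcf3, Tcf4 and Tcf12 stood at 94.6%, 98.2% and 91.4% of wildtype, each with overlapping libraries.

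Pdgfra (ENSMUSG00000029231.15, chromosome 5, 75152292 to 75198215, plus strand), the receptor, was lower in every Col6a1-/- pool. Pdgfra reached normalized counts of 14170.5, 14477 and 15765 across wildtype pools 1 to 3 and of 13942, 9949.9 and 11962 across Col6a1-/- pools 1 to 3. The highest Col6a1-/- pool, replicate 1, lay just under the lowest wildtype pool, and Col6a1-/- replicate 2 lay furthest below. The means were 14804 ± 846 for wildtype and 11951 ± 1996 for Col6a1-/- (SD, n = 3 pools each), or 80.7% of wildtype, with a log2 difference of -0.32 (SE 0.122) at a limma adjusted p of 0.185. The difference was -0.20 without Col6a1-/- replicate 2, and -0.27 with the male share as a covariate (adjusted p 0.747). It was -0.15 once a smooth trend on transcript length and GC content was removed from each library (adjusted p 0.476). Exons of Pdgfra overlap 3 annotated genes of at most 4.81 normalized counts in any library.

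The other receptor, Pdgfrb, which marks pericytes and other mural cells, lay lower as well. Its normalized counts were 12581, 12022 and 11295 (wildtype) against 10789.5, 9787 and 10017 (Col6a1-/-), 85.2% of wildtype (adjusted p 0.186). Removing the length and GC trend left a difference of -0.034. As mean ± SD over 3 pools, here and for each ratio that follows, the log2 ratio of Pdgfra to Pdgfrb was 0.31 ± 0.16 for wildtype and 0.22 ± 0.18 for Col6a1-/- pools (p = 0.5 by a two-sided exact permutation test, which cannot go below 0.1 here). The ligand genes Pdgfa, Pdgfb, Pdgfc and Pdgfd stood at 112%, 105%, 109% and 117% of wildtype, Pdgfa and Pdgfc without overlap. The receptor-like gene Pdgfrl stood at 118%, with counts of 205, 195 and 202 (wildtype) against 224, 255 and 235 (Col6a1-/-) and an adjusted p of 0.292. None of the 6 listed PDGF genes beside Pdgfra was called.

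Wnt2 (ENSMUSG00000010797.6, chromosome 6, 17988940 to 18030585, minus strand), the ligand, was higher in every Col6a1-/- pool. Wnt2 reached normalized counts of 681, 711 and 679.6 across wildtype pools 1 to 3 and of 774, 785 and 867 across Col6a1-/- pools 1 to 3. The wildtype pools lay close together and Col6a1-/- replicate 3 was the highest. The mean was 117% of wildtype, 691 ± 17.9 for wildtype and 808 ± 50.8 for Col6a1-/- (SD, n = 3 pools each), with a log2 difference of 0.23 (SE 0.0947) at a limma adjusted p of 0.219. The difference was 0.25 with the length and GC trend removed. It was 0.27 in the 3 mixed-sex pools alone, where wildtype replicate 3 was the only wildtype library.

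Its paralog Wnt2b lay the other way, at 65.9% of wildtype, with normalized counts of 159, 183 and 116 (wildtype) against 96.3, 114 and 92.0 (Col6a1-/-) and an adjusted p of 0.15. The log2 ratio of Wnt2 to Wnt2b was 2.19 ± 0.31 for wildtype and 3.00 ± 0.22 for Col6a1-/- pools, and the libraries did not overlap. The exact permutation test gave the smallest p the design allows, p = 0.1, or 0.3 adjusted over the 9 gene pairs compared; for the 6 pairs with a larger p the adjusted p was 0.514 to 0.600. Among the 37 listed genes of canonical WNT signalling, 17 had estimates above 0 and none was called. Of the 37, 3 lay wholly higher and 7 wholly lower in Col6a1-/- lungs, 27.0% without overlap against 24.9% of all tested genes. The co-receptor Lrp5 stood at 73.5% of wildtype (adjusted p 0.0939), and was called in the authors' deposited table (adjusted p 0.00599); with the length and GC trend removed its log2 difference went from -0.45 to -0.18. Lgr5, a receptor for R-spondins, was low in both genotypes, at 11.4, 29.6 and 27.1 (wildtype) against 61.8, 51.4 and 34.0 (Col6a1-/-), and was not called (adjusted p 0.145). Axin2 and Lef1, common readouts of beta-catenin activity, stood at 89.8% and 91.4% with overlapping libraries.

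Fgfr4 (ENSMUSG00000005320.9, chromosome 13, 55152640 to 55168759, plus strand), a fibroblast growth factor receptor, had almost equal means in the genotypes. Fgfr4 reached normalized counts of 1711, 1586 and 1442 across wildtype pools 1 to 3 and of 1471, 1847 and 1409 across Col6a1-/- pools 1 to 3. Col6a1-/- replicate 2 was the highest of the 6 libraries and Col6a1-/- replicate 3 the lowest. The log2 difference was -0.011 (SE 0.118) at a limma adjusted p of 0.971, and its sign turned positive with the length and GC trend removed (0.071). The log2 ratio to Fgfr2, the main epithelial receptor of the family, was -1.99 ± 0.16 for wildtype and -2.09 ± 0.15 for Col6a1-/- pools (exact permutation p = 0.6).

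Of the 20 listed FGF genes 17 were tested, 12 had estimates above 0 and none was called by limma. The share without overlap was 5.88%, against 24.9% of all tested genes. Fgf7, a mesenchymal ligand of Fgfr2, was the one gene of this list without overlap, at 630.4, 674 and 699 (wildtype) against 865, 911 and 862 (Col6a1-/-). It stood at 132% of wildtype (limma adjusted p 0.0942), and was called in the authors' deposited table (adjusted p 0.0238). Its log2 difference was 0.40 in all libraries and -0.010 with the length and GC trend removed. Spry4, a feedback inhibitor of receptor tyrosine kinase signalling, stood at 86.5% (adjusted p 0.291) and its libraries overlapped.

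Limch1 (ENSMUSG00000037736.18, chromosome 5, 66745827 to 67057158, plus strand) encodes a protein that binds non-muscle myosin and promotes its activity. Limch1 reached normalized counts of 37173, 37591 and 37630.3 across wildtype pools 1 to 3 and of 35592, 30391 and 30306 across Col6a1-/- pools 1 to 3. The wildtype pools differed by little, Col6a1-/- replicate 1 lay just below them, and Col6a1-/- replicates 2 and 3 lay further down. The means were 37465 ± 253 for wildtype and 32096 ± 3028 for Col6a1-/- (SD, n = 3 pools each), 85.7% of wildtype, with a log2 difference of -0.23 (SE 0.103) at a limma adjusted p of 0.248. With the length and GC trend removed the difference was -0.082 (adjusted p 0.504), and with the male share as a covariate -0.23 (adjusted p 0.747). Limch1 and Pdgfra have the longest transcripts of the 9 genes, 5903 and 6834 bases in the longest form, against 871 to 3324 bases for the other 7.

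In the list of 12 relatives and actomyosin genes 7 had estimates below 0. In Col6a1-/- lungs 1 of the 12 lay wholly higher and 5 wholly lower, against 10.7% and 14.2% of all tested genes. Myh9, the heavy chain of non-muscle myosin IIA, had counts of 37802, 35647 and 32473 (wildtype) against 27318, 27991 and 23586 (Col6a1-/-), 74.5% of wildtype (limma adjusted p 0.103). Ppp1r12a, a subunit of myosin phosphatase, stood at 77.7% (adjusted p 0.111). Both were called in the authors' deposited table (adjusted p 0.0073 and 0.0406). The log2 difference of Myh9 went from -0.43 to -0.19 with the length and GC trend removed, and that of Ppp1r12a from -0.37 to -0.53.

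Inmt (ENSMUSG00000003477.5, chromosome 6, 55170626 to 55175043, minus strand), an enzyme that methylates indolamines and related amines and is abundant in lung, was higher in every Col6a1-/- pool. Inmt reached normalized counts of 48164, 46671 and 37911 across wildtype pools 1 to 3 and of 49029.9, 66554 and 55224 across Col6a1-/- pools 1 to 3. Col6a1-/- replicate 1 lay just above the highest wildtype pool and Col6a1-/- replicate 2 was the highest, while wildtype replicate 3 was the lowest. The means were 44249 ± 5539 for wildtype and 56936 ± 8887 for Col6a1-/- (SD, n = 3 pools each), 129% of wildtype, with a log2 difference of 0.36 (SE 0.143) at a limma adjusted p of 0.197. In the authors' deposited table its adjusted p was 0.0867. The difference was 0.32 with the length and GC trend removed. It was 0.46 in the mixed-sex pools alone, where wildtype replicate 3, the lowest library, was the only wildtype one.

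Its relative Nnmt, which methylates nicotinamide, overlapped between the genotypes at 248, 235 and 266 (wildtype) against 270.4, 268 and 259 (Col6a1-/-). The log2 ratio of Inmt to Nnmt was 7.46 ± 0.27 for wildtype and 7.73 ± 0.23 for Col6a1-/- pools (exact permutation p = 0.3). Among the 7 tested methyltransferases related to Inmt, 6 had estimates above 0 and none was called. The share without overlap was 14.3%, against 24.9% of all tested genes. Hnmt, which inactivates histamine, was the one without overlap, with counts of 292, 333 and 432 (wildtype) against 496, 433 and 542 (Col6a1-/-) and an adjusted p of 0.137. Its log2 difference of 0.49 became -0.0070 with the length and GC trend removed. Pnmt, the enzyme that makes adrenaline, was near the limit of testing, at 129% of wildtype (adjusted p 0.531).

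Slc7a10 (ENSMUSG00000030495.12, chromosome 7, 35186385 to 35201114, plus strand), the light chain of a transporter of small neutral amino acids, overlapped between the genotypes. Slc7a10 reached normalized counts of 1959.7, 1564 and 1818 across wildtype pools 1 to 3 and of 1863, 1821 and 1913 across Col6a1-/- pools 1 to 3. The Col6a1-/- pools lay within the range of the wildtype pools, which held both the lowest and the highest library. The log2 difference was 0.073 (SE 0.0991) at a limma adjusted p of 0.702. Exons of Slc7a10 overlap those of Lrp3 on the opposite strand, which had 367 to 559.8 normalized counts, and whether the counting used strand was not given in the sources used here.

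Its heavy chain partner Slc3a2 had counts of 8265, 7963 and 7063 (wildtype) against 6141, 7860.4 and 6533 (Col6a1-/-), 88.2% of wildtype. The log2 ratio of Slc7a10 to Slc3a2 was -2.13 ± 0.20 for wildtype and -1.87 ± 0.21 for Col6a1-/- pools (exact permutation p = 0.3). Of the 14 other genes of these transporter families 10 were tested, 7 had estimates below 0 and none was called. In Col6a1-/- lungs 0 lay wholly higher and 3 wholly lower, 30.0% without overlap against 24.9% of all tested genes. The cationic amino acid carrier Slc7a1 and the neutral carrier Slc7a8 stood at 76.0% and 73.9% of wildtype (adjusted p 0.127 and 0.168).

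Plin2 (ENSMUSG00000028494.12, chromosome 4, 86648386 to 86670060, minus strand), the lipid droplet coat, had the smallest p of the 9 genes and was lower in every Col6a1-/- pool. Plin2 reached normalized counts of 4686, 4735 and 4175 across wildtype pools 1 to 3 and of 3541, 3464 and 3969.7 across Col6a1-/- pools 1 to 3. The nearest libraries were Col6a1-/- replicate 3 and wildtype replicate 3. The means were 4532 ± 310.2 for wildtype and 3658 ± 273 for Col6a1-/- (SD, n = 3 pools each), 80.7% of wildtype, with a log2 difference of -0.31 (SE 0.0922) at a limma adjusted p of 0.127. It passed the threshold without wildtype replicate 3 (-0.37, adjusted p 0.0405), when the remaining wildtype pools held almost no Y-linked RNA. In the 3 mixed-sex pools alone the difference was -0.16. There wildtype replicate 3, the lowest wildtype pool for Plin2, was the only wildtype library. A fit with the male share as covariate gave -0.10 (adjusted p 0.846). The part of sex in the difference was not tested beyond these fits.

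The other perilipins did not share the direction of Plin2. Plin3, the ubiquitous member, had counts of 2216, 2109 and 1899 (wildtype) against 2050.4, 2170.4 and 2211 (Col6a1-/-), and the log2 ratio of Plin2 to Plin3 was 1.13 ± 0.044 for wildtype and 0.77 ± 0.086 for Col6a1-/- pools without overlap (exact permutation p = 0.1, the smallest possible, and 0.3 adjusted over the 9 pairs). Plin1, the perilipin of fat cells, had counts of 249, 177 and 85.2 (wildtype) against 331, 513 and 293 (Col6a1-/-), 222% of wildtype (adjusted p 0.113). The log2 ratio of Plin2 to Plin1 was 4.85 ± 0.69 for wildtype and 3.31 ± 0.51 for Col6a1-/- pools, again without overlap (exact permutation p = 0.1, adjusted 0.3). Plin4 and Plin5 stood at 122% and 117% with overlapping libraries.

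G0s2 (ENSMUSG00000009633.3, chromosome 1, 193272161 to 193273217, minus strand), the lipase inhibitor, overlapped between the genotypes, with wildtype replicate 3 the lowest library and Col6a1-/- replicate 3 the highest. G0s2 reached normalized counts of 2067, 1973 and 1426 across wildtype pools 1 to 3 and of 2385, 1853 and 2628 across Col6a1-/- pools 1 to 3. Col6a1-/- replicate 2 lay below wildtype replicates 1 and 2. The mean was 126% of wildtype, 1822 ± 346 for wildtype and 2289 ± 396 for Col6a1-/- (SD, n = 3 pools each), with a log2 difference of 0.33 (SE 0.160) at a limma adjusted p of 0.271. The difference was 0.17 without wildtype replicate 3. In the 3 mixed-sex pools it was 0.81, a comparison added after seeing the data that sets 1 wildtype library, the one with the lowest G0s2, against 2 Col6a1-/- libraries, so that no spread within wildtype stands behind it. With the male share as a covariate it was 0.91 (adjusted p 0.141).

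Pnpla2, the lipase that G0S2 inhibits, had almost equal means, with counts of 4881, 4989 and 3966 (wildtype) against 4104, 5617 and 4151 (Col6a1-/-). The log2 ratio of G0s2 to Pnpla2 was -1.35 ± 0.12 for wildtype and -1.01 ± 0.51 for Col6a1-/- pools (exact permutation p = 0.4). In the 2 Col6a1-/- pools with the higher G0s2, replicates 1 and 3, the ratio was -0.78 and -0.66, above every wildtype pool, and in Col6a1-/- replicate 2 it was -1.60, below every wildtype pool. Of the 8 lipolysis genes 3 had estimates above 0 and none was called. Lipe, the hormone-sensitive lipase, stood at 81.4% of wildtype (adjusted p 0.227) with overlapping libraries, and Pnpla3 at 129% (adjusted p 0.359).

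**Figure D2:**
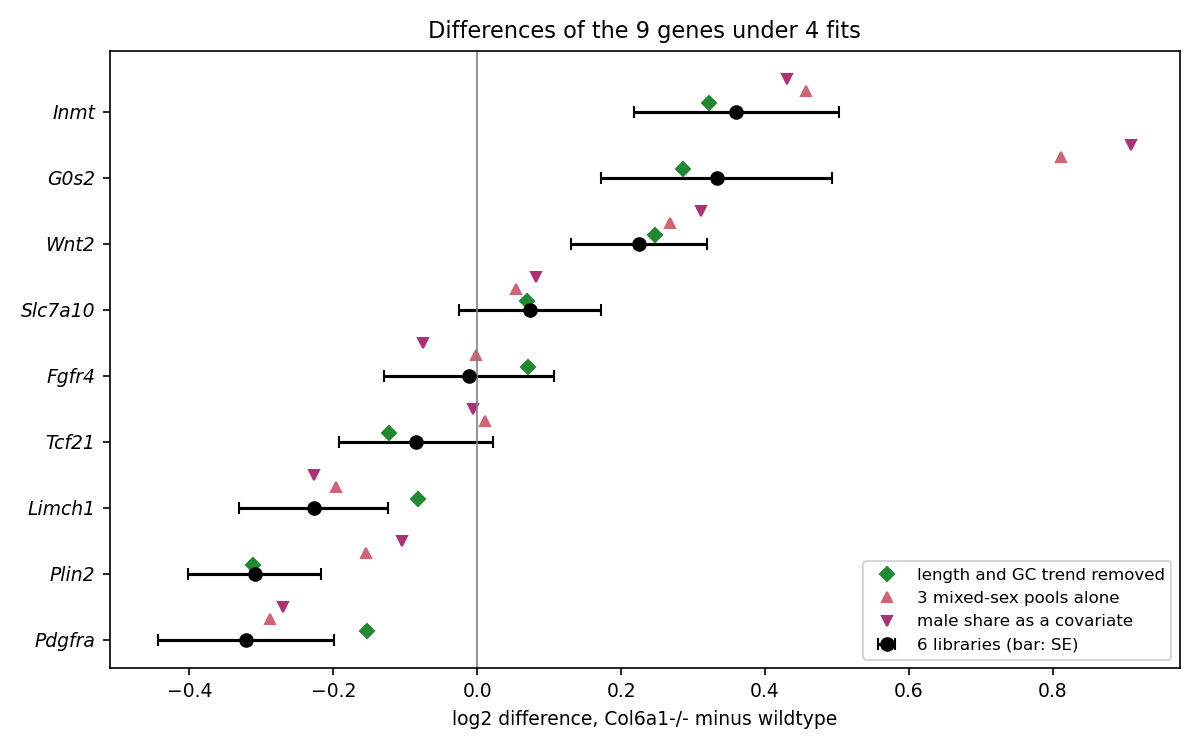
Log2 difference, Col6a1-/- minus wildtype, of the 9 genes in all 6 libraries (black, bar: SE), after removal of the length and GC trend (green), in the 3 mixed-sex pools alone (red) and with the male share as a covariate (purple). Limch1 and Pdgfra lie nearer to 0 with the trend removed (-0.082 and -0.15), Plin2 nearer to 0 and G0s2 further from 0 in both fits that regard sex.

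The lipid genes around Plin2 and G0s2 were read with a list of 23 lipid droplet and lipofibroblast genes. In it 19 of 23 tested genes had estimates above 0, with a median log2 difference of 0.24 against 0.0098 over all tested genes. None was called, and 6 lay wholly higher and 1 wholly lower in Col6a1-/- lungs. The share without overlap was 30.4%, against 24.9% of all tested genes. Fabp4, a fatty acid binding protein of fat cells and capillaries, had counts of 884, 692 and 469.6 (wildtype) against 1214, 2095 and 1396 (Col6a1-/-), 2.30-fold the wildtype level (limma adjusted p 0.0792); it was called in the authors' deposited table (adjusted p 0.0232). Pparg, the regulator of the lipofibroblast and fat cell programmes, stood at 104% of wildtype, with counts of 297, 307 and 305 (wildtype) against 298, 313 and 333 (Col6a1-/-). The list shares 5 genes with the fat tissue markers, and for the 18 others the median was 0.16, with 14 estimates above 0. Of these 18, 22.2% did not overlap, against 24.9% of all tested genes.

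Markers of fat tissue were mostly higher in the Col6a1-/- pools. Of 15 tested fat markers, 14 had estimates above 0, with a median log2 difference of 1.21. That median was 0.81 without wildtype replicate 3, 0.86 with library quality weights and 1.70 with the male share as a covariate. In Col6a1-/- lungs 10 of the 15 fat markers lay wholly higher, as did 10.7% of all tested genes. Retn, a hormone of fat cells, had counts of 92.4, 91.1 and 32.9 (wildtype) against 177, 226 and 192 (Col6a1-/-) and a limma adjusted p of 0.0869, and was called in the authors' deposited table (adjusted p 0.0002). The summed normalized counts of the list were 6381 to 11624 over wildtype and 12206 to 16804 over Col6a1-/- libraries, and Ucp1, the defining marker of brown fat, did not exceed 4.39 in any library. As a log2 average over the list, set against the average library, the fat markers measured 0.030, -0.48 and -1.09 across wildtype pools 1 to 3 and 0.39, 0.77 and 0.37 across Col6a1-/- pools 1 to 3. G0s2 shared with the fat markers the lowest level in wildtype replicate 3, while G0s2 was low and the fat markers highest in Col6a1-/- replicate 2. The part of fat tissue in the levels of Plin2 and G0s2 was not tested.

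Alveolar macrophages and type 2 cells, which also hold Plin2, had lower marker estimates. Among the 12 macrophage markers 9 had estimates below 0 (median -0.24, and -0.14 without Col6a1-/- replicate 2, -0.12 in the mixed-sex pools and -0.048 with the male share as a covariate), with summed counts of 35999 to 40638 over wildtype and 33403 to 37133 over Col6a1-/- libraries, and Itgax, the integrin CD11c, stood at 73.2% of wildtype (limma adjusted p 0.0786). Among the 10 type 2 markers 9 had estimates below 0 (median -0.15), with summed counts of 904092 to 1013521 over wildtype and 819891 to 999042 over Col6a1-/- libraries, and Abca3, the lipid pump of the surfactant organelle, stood at 76.1% (adjusted p 0.111). None of either list was called by limma. Of the 12 macrophage markers 1 lay wholly higher and 5 wholly lower in Col6a1-/- lungs. Of the 10 type 2 markers 0 lay wholly higher and 5 wholly lower. Over all tested genes these shares were 10.7% and 14.2%. The authors' deposited table called 5 of the 12 macrophage markers, 4 lower, Itgax among them (adjusted p 0.00244), and Fabp4 higher, and 2 of the 10 type 2 markers, both lower, Abca3 among them (adjusted p 0.0156). The part of these cells in the Plin2 difference was not tested. Red cell markers were also higher, 9 of 10 wholly so against 10.7% of all tested genes, with a median of 0.73. Hbb-bs and Hba-a1, globin genes, stood at 196% and 178% of wildtype (adjusted p 0.0781 and 0.0786). The capillary list had a median of -0.17, with the endothelial genes Plvap and Cdh5 at 76.3% and 78.6%. The type 1 cell list had a median of -0.077, with Pdpn at 116% and Rtkn2 at 90.0%. Of the 10 capillary genes 1 lay wholly higher and 5 wholly lower, and of the 8 type 1 genes 2 and 1. None of the red cell, capillary and type 1 lists held a gene called by limma. The authors' deposited table called 8 of the 10 red cell genes, all higher, and 3 of the 10 capillary genes, all lower. It called 5.05% of all genes with an adjusted p.

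Plin2 is also a target of the fatty acid receptors of the PPAR family. The list of 19 PPAR and fasting targets had 13 estimates below 0, a median of -0.071 and no called gene. That median was -0.018 with the male share as a covariate and -0.19 without wildtype replicate 3. In Col6a1-/- lungs 1 gene lay wholly higher and 6 wholly lower, 36.8% of the list without overlap against 24.9% of all tested genes. The part of PPAR signalling in the Plin2 difference was not tested. Angptl4, an inhibitor of lipoprotein lipase and a usual PPAR target, had counts of 3758, 3445 and 3317 (wildtype) against 2624, 1543 and 2879 (Col6a1-/-), 67.0% of wildtype (limma adjusted p 0.132), and was called in the authors' deposited table (adjusted p 0.0315). Its log2 difference was -0.27 in the mixed-sex pools, against -0.63 in all libraries. There wildtype replicate 3, the lowest wildtype pool for Angptl4, was the only wildtype library. Ppard, one of the receptors, stood at 82.9% (adjusted p 0.158). Pdk4 and Cpt1a, enzymes that favour fat as fuel, stood at 72.4% and 85.9% without overlap, while Acadm, an enzyme of fatty acid oxidation, stood at 104% with overlapping libraries.

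**Figure D3:**
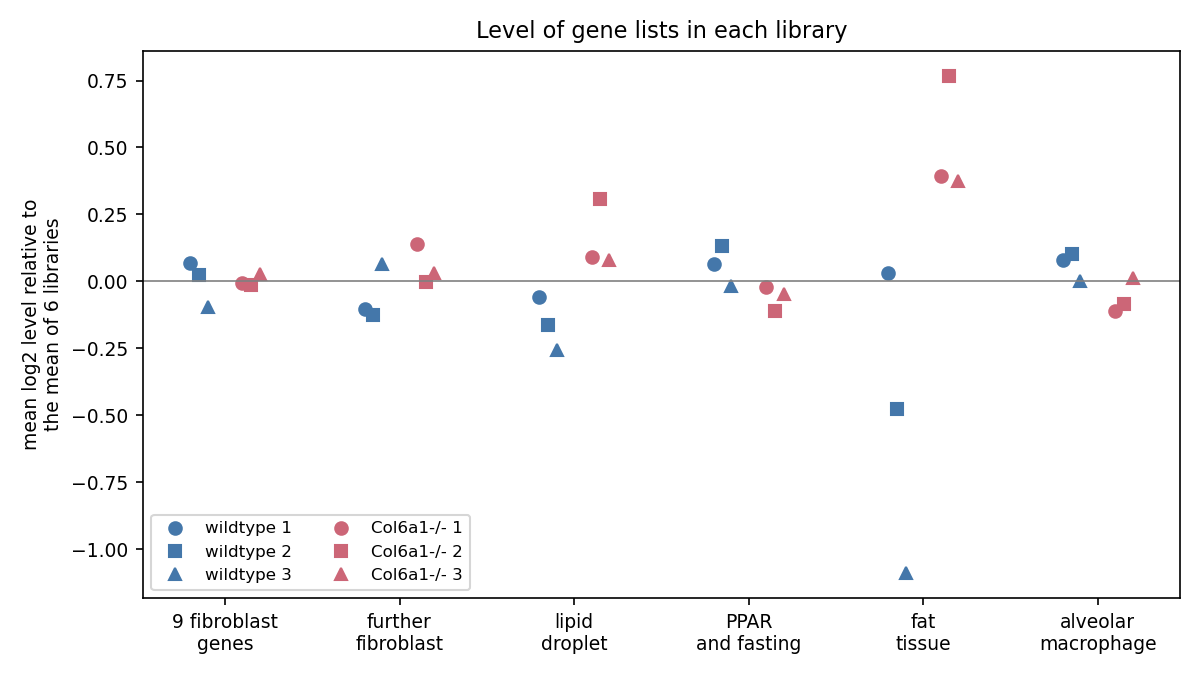
Mean log2 level of 6 gene lists in each library, relative to the mean of the 6 libraries (vertical axis), wildtype in blue and Col6a1-/- in red, with 1 symbol per replicate number. The 9 genes stay within -0.097 and 0.067, with the genotypes interleaved, while the fat tissue list runs from -1.09 to 0.77.

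A further 20 markers of alveolar fibroblasts had estimates on both sides of 0. None was called by limma, 12 had estimates above 0, the median was 0.051, and 6 lay wholly higher and 3 wholly lower in Col6a1-/- lungs. In all, 45.0% of the list did not overlap, against 24.9% of all tested genes. Of the 20, the authors' deposited table called 5, Aspa, Meox2 and Fgf7 higher and Scube2 and Macf1 lower. Over all genes with an adjusted p, that table called 5.05%. Aspa, an enzyme that cleaves N-acetylaspartate, had counts of 107, 111 and 166 (wildtype) against 228, 244 and 228 (Col6a1-/-), 182% of wildtype (limma adjusted p 0.0815). Meox2, a homeobox transcription factor, stood at 141% (adjusted p 0.0881), with counts of 495, 546 and 589 (wildtype) against 799, 799 and 703 (Col6a1-/-).

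Scube2, a secreted protein that helps release hedgehog ligands, lay lower at 3265, 2920.1 and 2998 (wildtype) against 2452, 2255 and 1948 (Col6a1-/-), 72.5% of wildtype (adjusted p 0.0884). Macf1, a large crosslinker of microtubules and actin, stood at 75.8% (adjusted p 0.13), and its log2 difference went from -0.41 to -0.18 with the length and GC trend removed. Of others, named after their values were seen, Npnt, an integrin ligand, stood at 98.2%, its receptor chain Itga8 at 94.4%, the growth factor Vegfd at 98.3% and Fgf10 at 112%, all with overlapping libraries. The membrane collagen Col13a1 stood at 94.1% and lay lower in every Col6a1-/- pool. Ces1d and Slc36a2 stood at 123% and 121% without overlap, and Angpt1 and Nebl at 124% and 130.0% with overlap.

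Of 21 tested dimer partners and mesenchymal transcription factors, 11 had estimates above 0 and the median was 0.0016, and -0.037 with each library centred on its median; Foxf2, a forkhead factor of the lung mesenchyme, stood at 116% without overlap (adjusted p 0.189). Neighbouring mesenchymal classes were mixed too. The adventitial fibroblast list had a median of 0.095 (-0.019 without Col6a1-/- replicate 2) and Dcn, decorin, stood at 139% of wildtype (adjusted p 0.0781) and Ly6c1 at 83.8% (adjusted p 0.173). The myofibroblast and smooth muscle list had a median of -0.070, which turned to 0.21 with the male share as a covariate and to 0.16 in the mixed-sex pools, with the hedgehog-binding gene Hhip at 146% (adjusted p 0.0939) and Aspn, asporin, at 185% (adjusted p 0.116). The pericyte list had a median of -0.079, with the receptor gene Notch3 at 82.6% (adjusted p 0.174) and the laminin gene Lamc3 at 78.7% (adjusted p 0.172). None of the genes of these lists was called by limma. The authors' deposited table called Dcn and Hhip, both higher (adjusted p 0.000788 and 0.00555). From the transcription factor list it called Meox2, also higher (adjusted p 0.00869). No difference between these lists and the 9 genes was tested.

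**Figure D4:**
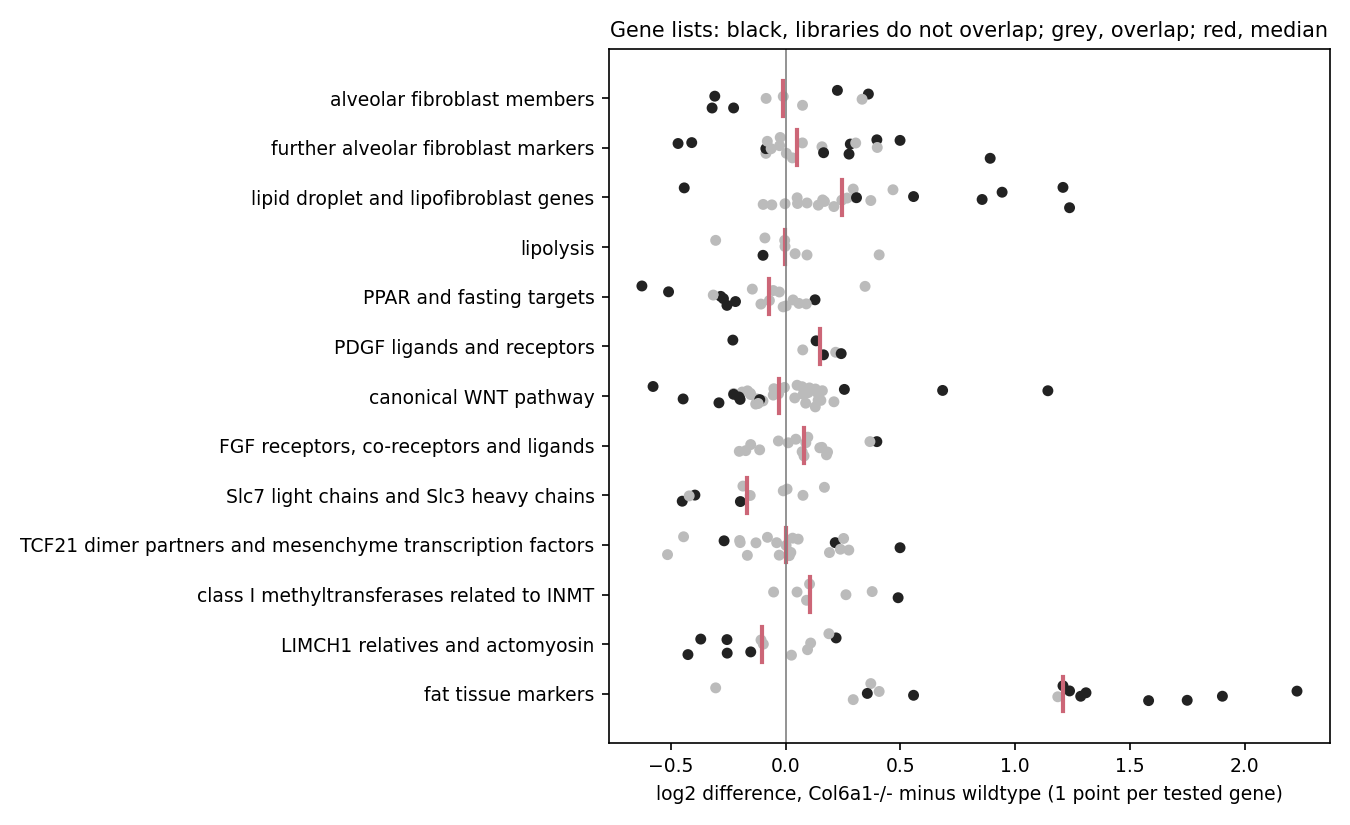
Log2 difference, Col6a1-/- minus wildtype (horizontal axis), of each tested gene in 13 gene lists; black points are genes whose libraries do not overlap between genotypes, grey points overlap, and red lines are medians. The 9 genes lie on both sides of 0 with a median of -0.011, and the fat tissue list is centred at 1.21.

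The levels of the 9 genes spanned a wide range. Per kilobase of the longest transcript, the wildtype level was 41085 ± 5143 normalized counts for Inmt and 6347 ± 42.9 for Limch1 (mean ± SD, n = 3 pools). Plin2, Pdgfra and G0s2 followed at 2400.3 ± 164, 2166 ± 124 and 2092 ± 397, and the wildtype ranges of neighbours among these 3 overlapped. Tcf21 at 1532 ± 154 overlapped with G0s2 in wildtype lungs and not in Col6a1-/- lungs. Slc7a10, Fgfr4 and Wnt2 were lowest at 912 ± 103, 475 ± 40.6 and 306 ± 7.92, each separate from its neighbours in both genotypes. The ratio of Tcf21 to Pdgfra did not separate the genotypes, at -2.44 ± 0.23 for wildtype and -2.20 ± 0.39 for Col6a1-/- pools on the log2 scale of normalized counts (exact permutation p = 0.4).

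For each of the 9 genes the 3 genes with the most similar log2 values over the 6 libraries were taken from 13289 candidates, by Pearson's correlation, as a description. The correlations of these 27 genes were 0.962 to 0.999, and none of the 27 was called by limma between genotypes. Mrs2, Macf1 and Abhd2 were nearest to Limch1. Macf1, which is also in the list of further alveolar fibroblast markers, was called in the authors' deposited table (adjusted p 0.025). Those of the 27 outside the gene lists were not looked up there. Chp2, Camk1d and Pik3cg were nearest to Pdgfra, Szrd1, Eefsec and Cap1 to Plin2, and Prss36, Slc2a4 and Selenoo to Inmt. Ogg1, Cox7b and Timm10b were nearest to Wnt2, and Eif1ad, Prr15 and Kcnj5 to G0s2. Ctsa, Ik and Eif2b2 were nearest to Tcf21, and Gpatch1, C4b and Prkcz to Fgfr4. The values compared share the same 6 libraries, with their differences in sex and depth.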

How the data were processed

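RNA-seq of 6 lung libraries was used, 3 per genotype, each a pool of 2 animals. The submitters' processing notes name the build GRCm38.p5 and, without saying what each did, DESeq2 1.16.1, R 3.4.1, featureCounts, Subread 1.5.0p3, Trimmomatic 0.36 and STAR 2.5.2b. The deposited signal per gene was a normalized count that, per the name of the deposited file, the authors took from DESeq2. Multiplied by 1 size factor per library, 100% of the values came out whole (tolerance 1e-06). For Col6a1-/- replicate 3 that factor was 1.0003, near 1. The recovered reads gave the depth and the count models. The header of wildtype replicate 2 carried the unexplained word New. The authors also deposited their own comparison of the genotypes, with a log2 fold change, a p-value with its adjusted value, and a mean and a test statistic (each a score here, not used).

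The main test was limma-trend 3.58.1 in R 4.3.3, two-sided and with no covariate, on log2(value + 1) of genes that reached 10 normalized counts in 3 or more libraries. Gene identifiers, lengths and GC came from GENCODE M21 on GRCm38, matched by symbol for 95.3% of rows. Alternatives used other pseudocounts, filters and scalings, edgeR 4.0.16, DESeq2 1.42.0, the replicate number as a block, the male share as a covariate, library weights, removal of a trend on length and GC (natural splines, 5 degrees of freedom each), and each library left out; the mixed-sex pools alone, and the lipid list without fat genes, were added after seeing the data. The limma step was tested on simulated data. Gene pairs were compared with exact permutation tests over samples. The members and lists were chosen with earlier results of these data known. Named were the 9 genes, their pair partners, and in each of the 22 other lists (Gucy1a1 and Gucy1b1 had no match) any called gene and the 2 with the smallest p, and the 3 most correlated genes per member; other genes named were chosen after their values were seen. The genes most correlated with Slc7a10 are not reported here. The 9 genes had at least 679.6 normalized counts in every library.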

Additional observations from a re-analysis of the deposited data

How the results depend on the processing

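Precision for the 9 genes was limited by the number of pools, 3 per genotype. The pools also differed in sex, with a male share that ran partly with genotype. The number of genes called over all 16879 (11 in the main test) was 93 without a filter, 7 with a filter at 50, 26 with median centring (which moved the median of all genes by under 0.1), 742 with DESeq2, 7 with the replicate block, 0 with the male share as a covariate (1306 at an unadjusted p under 0.05), 3225 with library quality weights, 4 with the length and GC trend removed and 325 in the mixed-sex pools alone, where 1 wildtype library is set against 2 and is assumed to vary like the others. Leaving out each library, with 16682 to 16744 genes tested, gave 0 to 1383 called genes. The count was 0 without wildtype replicate 1 or Col6a1-/- replicate 3 and 1383 without wildtype replicate 3. Of the 9 genes, 1 was called with library quality weights (Plin2, log2 difference -0.33, adjusted p 0.0156), 1 without wildtype replicate 3 (Plin2, -0.37), and 1 passed in the mixed-sex pools (G0s2, 0.81), which with a lone wildtype library is no replicated call; the other 16 alternatives called 0, so the fits that left out a library ranged from 0 to 1. Leaving out a library gave Plin2 -0.37 to -0.27 and G0s2 0.17 to 0.48. The sign of Fgfr4 turned with the length and GC trend removed (0.071) and in fits that left out a library (-0.13 to 0.065), that of Slc7a10 in such fits (-0.017 to 0.15), that of Tcf21 in the mixed-sex pools alone (0.011), and that of the Pdgfra to Pdgfrb ratio in fits that left out a library (-0.17 to 0.0060). Inmt, Wnt2, Limch1 and Pdgfra kept sign and stayed uncalled under all 19 alternatives. Same-numbered pools are not stated to be paired, and their deviations from the genotype means correlated at -0.14, 0.11 and -0.0059, so the block is only a shared number; it changed no call among the 9 genes. Counts of called genes at 0 without wildtype replicate 1 or Col6a1-/- replicate 3 stood beside 1902 and 1979 genes at an unadjusted p under 0.05. The causes of these changes were not tested.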
